A study of Mus musculus with 8 samples.

Results

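The interferon-stimulated and antigen presentation genes are a list of 40 genes that cells are known to switch on in response to interferons, or that process and display peptides on MHC class I molecules. They were chosen by name. A probe belonged to a listed gene when its RefSeq accession, without the version, matched that gene. By this rule 38 of the 40 genes had a probe, 48 probes in all, out of 20660 genes with a probe on the array. Mx1 and Mx2, which encode antiviral GTPases, matched no probe. The genes were measured in neurospheres, which are balls of neural stem cells and their progeny, here from the ganglionic eminence of mouse E14.5 embryos. Each sample came from 1 embryonic brain, and RNA was taken from quaternary spheres after culture for 7 days.

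The labels give 3 groups on 8 one-colour arrays of 1 slide. Floating neurospheres of the HP1gamma (Cbx3) knockout, genotype -/- and called KO here, had 3 arrays. Adherent KO neurospheres had 2 arrays, and floating wild-type (+/+) neurospheres, called WT here, had 3 arrays. HP1gamma is a protein of heterochromatin that recognises methylated histone tails. The sources used here give no detail of the knockout allele or of the adherent culture, and the culture text names low-attachment plates for every sample. No label names an interferon or viral treatment for any group. Values are log2 of the scanner's processed signal minus the array's own 75th percentile, so that 0 is the level of the 75th percentile spot. They compare arrays for 1 probe and do not rank genes.

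Cbx3 itself did not follow the labels on 2 arrays. Its level was -1.86, -2.76 and -1.75 on the KO floating arrays 1, 2 and 3, and -2.03 on KO adherent 1, whereas the array labelled KO adherent 2 read 5.91. WT floating 1 and 3 read 5.83 and 5.95, whereas the array labelled WT floating 2 read -2.17. A second Cbx3 probe split the arrays in the same way. The comparisons below are therefore given with all 8 arrays as labelled and without these 2, and the values by gene class rest on the other 6 arrays. Over the 8 arrays, the 75th percentile of processed signal ran from 616 to 865, and 44.5% to 55.4% of spots were well above background. The number of arrays limits the precision of every difference.

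Interferons act in 2 main types. Type I interferons, such as the alpha and beta forms, bind the receptor of Ifnar1 and Ifnar2 and activate factors including Stat2 and Irf9, which bind the interferon-stimulated response element (ISRE) of antiviral genes. Interferon gamma binds the receptor of Ifngr1 and Ifngr2 and acts through the gamma-activated site (GAS), raising Irf1, guanylate-binding proteins and the antigen presentation machinery. For MHC class I display, immunoproteasome subunits cut proteins, the Tap transporter carries the peptides into the endoplasmic reticulum, and class I heavy chains with B2m present them at the surface. Neural stem cells are known to hold a low level of some interferon-stimulated genes without added interferon.

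In 1 of the comparisons below, 5 of 29 tested members (17.2%) passed the test, against 17.3% of all features. That comparison joined the KO cultures and left out the 2 arrays whose Cbx3 opposed the label. The 5 members were Rtp4, Ifit3, Bst2, Gbp2 and Psmb8. The 250 bases before the gene start are shown for the 4 of these that have an entry in the RefSeq promoter table (GRCm38.p6), because they carry the elements these pathways are known to use. An ISRE was searched as GAAANNGAAA, or TTTCNNTTTC on the other strand, and a GAS as TTCNNNGAA, which reads the same on both strands. Capitals mark each match. Bst2 lies on the minus strand at chr8:71537473-71537722 and has 2 ISRE matches, starting 130 and 124 bases before the gene start, which overlap each other and a GAS match that starts at 136 bases. Gbp2 lies on the plus strand at chr3:142620413-142620662, with 1 ISRE match at 59 bases. Ifit3 lies on the plus strand at chr19:34583279-34583528, with ISRE matches at 156 and 122 bases. Psmb8 lies on the plus strand at chr17:34197945-34198194, with no ISRE match and 1 GAS match at 97 bases.
Bst2: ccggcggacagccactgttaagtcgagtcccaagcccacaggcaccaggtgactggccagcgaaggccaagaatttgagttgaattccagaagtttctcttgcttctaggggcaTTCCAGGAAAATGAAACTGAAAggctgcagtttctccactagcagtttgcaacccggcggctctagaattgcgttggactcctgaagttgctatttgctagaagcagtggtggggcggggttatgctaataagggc
Gbp2: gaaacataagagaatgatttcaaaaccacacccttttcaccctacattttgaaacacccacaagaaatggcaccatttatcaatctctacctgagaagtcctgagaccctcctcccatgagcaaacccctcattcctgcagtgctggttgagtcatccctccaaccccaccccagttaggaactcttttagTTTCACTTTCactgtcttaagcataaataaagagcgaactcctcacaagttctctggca
Ifit3: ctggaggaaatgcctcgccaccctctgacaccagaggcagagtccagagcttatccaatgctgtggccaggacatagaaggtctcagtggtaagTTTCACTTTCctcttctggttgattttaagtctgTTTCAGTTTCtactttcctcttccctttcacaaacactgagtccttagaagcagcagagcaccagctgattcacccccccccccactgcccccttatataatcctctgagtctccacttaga
Psmb8: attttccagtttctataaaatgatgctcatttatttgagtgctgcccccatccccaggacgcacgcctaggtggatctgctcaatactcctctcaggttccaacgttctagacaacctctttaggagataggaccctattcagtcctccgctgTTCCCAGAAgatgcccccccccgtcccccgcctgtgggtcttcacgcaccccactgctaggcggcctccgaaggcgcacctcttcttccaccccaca

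Across the members, 31 genes had a promoter entry, 35 promoters in all. An ISRE match stood in 11 of the 35 (31.4%), against 978 of 32851 promoters of the table (2.98%). The 11 genes were Bst2, Ifit1, Ifit3, Isg15, Oas1a and Rsad2 among the type I-induced effectors, Stat2, the gamma-type genes Gbp2 and Gbp3, and the class I chains B2m and H2-T23. A GAS match stood in 6 member promoters (17.1%), those of Bst2, Eif2ak2, Irf1, Oas1a, Psmb8 and Samhd1, against 2306 promoters of the table (7.02%). These matches describe letters in this window. Members that moved in opposite directions, Ifit3 on one side and Bst2 and Gbp2 on the other, all held an ISRE match.

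Detection differed between the members. Of the 38 genes, 26 were well above background on all 8 arrays, 10 on 1 to 7 arrays and 2 on 0 arrays. Ifit1, which encodes a protein that binds foreign RNA caps, and Oasl2, a relative of the 2'-5' oligoadenylate synthetases, were the 2 that were never above background. Ifi44, Oas1a and Zbp1 were above background on 1 array each, the interferon regulatory factor Irf7 and the checkpoint ligand Cd274 on 2 each, Nlrc5, an activator of class I genes, on 3, and Usp18, which removes Isg15 from proteins, on 6. These 9 genes were not tested in the joined comparison described below. Of 8 interferon genes with a probe, Ifna4, Ifnb1, Ifng and Ifnk were above background on 0 arrays, Ifne on 1, Ifna2 on 3, Ifna5 on 5 and Ifnl3, an interferon lambda, on all 8.

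**Figure D1:**
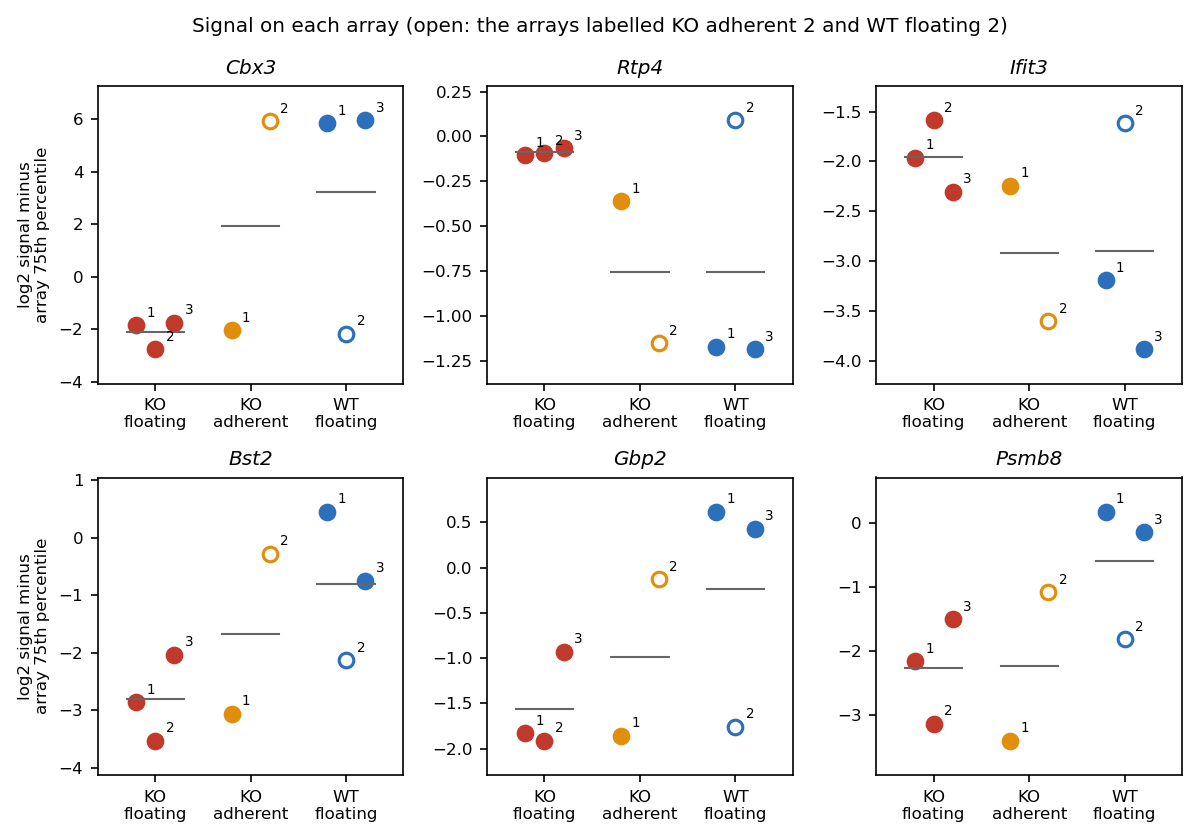
Level of Cbx3 and the 5 members that passed the test, as log2 signal minus the array's 75th percentile, on each of the 8 arrays by labelled group (KO floating, KO adherent, WT floating), with grey bars for group means and open symbols for the 2 arrays whose Cbx3 opposed the label. For Rtp4 the 4 other KO arrays lie between -0.36 and -0.06, above -1.18 and -1.17 on WT floating 1 and 3.

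With the labels as given, no member passed the test between genotypes. In KO floating against WT floating over all 8 arrays, 0 of 31 tested members passed limma's test at an adjusted p of 0.05, and 0 had an unadjusted p under 0.05. Of all features tested, 0.00442% passed and 1.73% had an unadjusted p under 0.05. Bst2 came nearest, with a mean of -2.81 ± 0.75 in KO floating and -0.81 ± 1.29 in WT floating (SD, n = 3 each), a difference of -2.0 (SE 0.89, limma adjusted p = 0.813). For Rtp4 the means were -0.09 ± 0.02 in KO floating and -0.76 ± 0.73 in WT floating, where the spread came from the array labelled WT floating 2. The arrays of both groups did not overlap for 2 members, Gbp3 and Ifih1, both lower in KO floating. Over all features 8.4% did not overlap.

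Adherent culture was compared with floating culture within the KO genotype. Here 0 of 31 members passed (limma, smallest adjusted p 0.990), as did 0% of all features, and 0 members, against 1.12% of all features, had an unadjusted p under 0.05. H2-K1, a class I heavy chain, had a mean of 4.22 ± 0.61 on the 2 KO adherent arrays and 3.36 ± 0.84 on the 3 KO floating arrays, a difference of 0.86 (SE 0.68). The arrays did not overlap for 5 members (Nlrc5 higher, and Rtp4, Tlr3, Ifi27 and Tapbp lower in KO adherent), and for 12.8% of all features. Nlrc5 was above background on 0 of the 3 KO floating arrays and passed the filter through KO adherent alone. Its difference is therefore not a measured one. Without the 2 arrays that opposed their labels the count stayed at 0, with 1 KO adherent array left.

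Without those 2 arrays, the differences between KO floating (n = 3) and WT floating (n = 2) were larger for Rtp4, Ifit3, Bst2, Gbp2 and Psmb8, but again 0 of 31 members passed, against 0.177% of all features, while 11 members, and 25.3% of all features, had an unadjusted p under 0.05. The arrays did not overlap for 18 members (58.1%) and 51.1% of all features. The counts of 11 and 18 include Nlrc5, above background on 0 of 3 KO floating and 1 of 2 WT arrays. Its difference is therefore not a measured one. Both counts also include Ifit3 and Tlr3, which passed the filter through KO alone. Rtp4 differed by 1.09 (SE 0.14, limma adjusted p = 0.0667), against 0.67 with all 8 arrays. Gbp2 differed by -2.08 (SE 0.35, limma adjusted p = 0.0830), against -1.32 with all 8. Ifit3 differed by 1.59, Bst2 by -2.66 and Psmb8 by -2.28, with adjusted p from 0.103 to 0.109. Rtp4 alone passed without the array labelled KO adherent 1 (adjusted p = 0.0388).

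**Figure D2:**
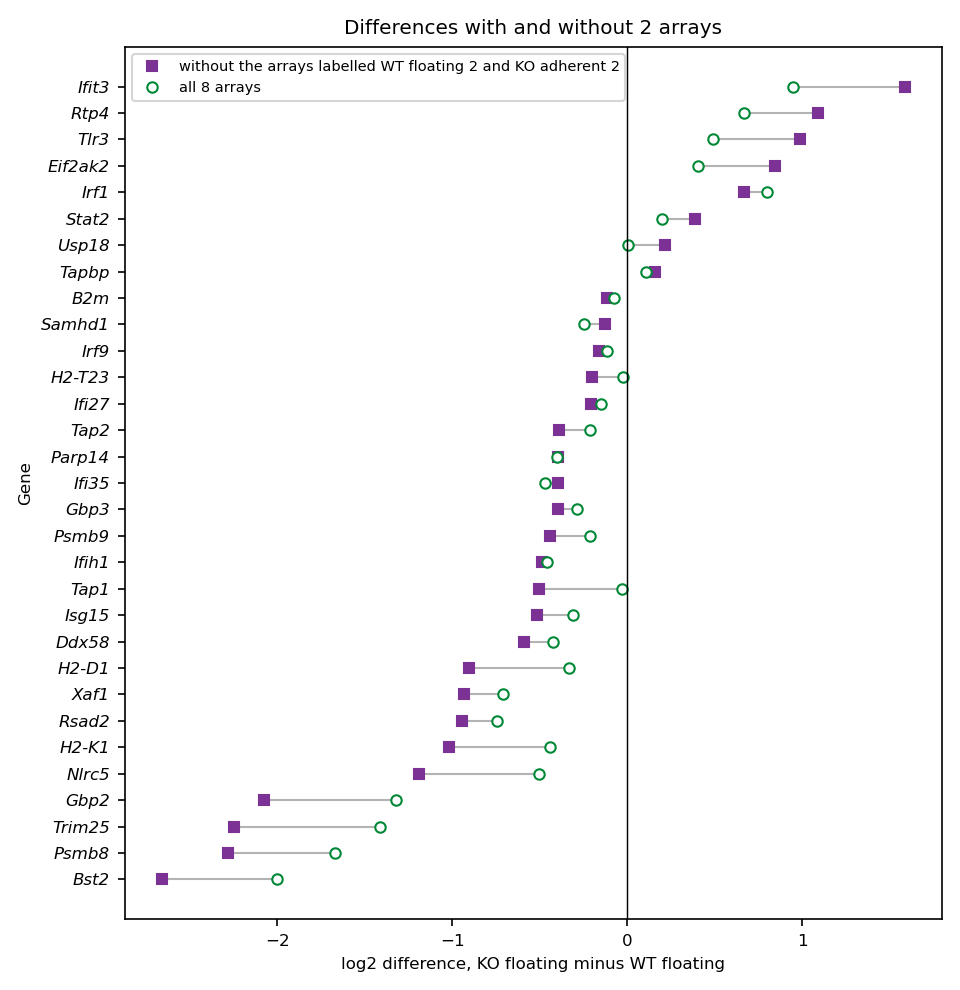
Difference between KO floating and WT floating for the 31 tested members, in log2 units, with genes down the page. Open circles are all 8 arrays, and squares are without the 2 arrays whose Cbx3 opposed the label. Grey lines join the values of each gene. Bst2 moved to -2.66 without them, against -2.0 with them, and Rtp4 to 1.09, against 0.67.

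The remaining values come from a joined comparison, in which the 4 other KO arrays (KO floating 1, 2 and 3 and KO adherent 1) were set against WT floating 1 and 3. It does not separate culture from genotype for the adherent array. With all 8 arrays as labelled, 5 KO against 3 WT, 0 of 29 members passed (limma, smallest adjusted p 0.863), against 0.00482% of all features, and 2 members had an unadjusted p under 0.05, against 3.05% of all features. On the 8 arrays the differences were 0.40 for Rtp4, 0.56 for Ifit3, -1.54 for Bst2, -1.09 for Gbp2 and -1.66 for Psmb8. What follows is without the 2 opposed arrays. There, of 29 tested members, 5 passed, 2 higher and 3 lower in KO, which is 17.2%. Of all 21463 features tested, 17.3% passed (8.99% higher and 8.35% lower), so the share of members was near that of all features. In 16 members the arrays did not overlap, 5 higher and 11 lower in KO, which is 55.2% against 53.4% of all features (24% higher and 29.3% lower). Of the 29 members, 3 passed the filter through 1 group alone. These were Ifit3 and Tlr3 through KO, where both were higher, and Ifi35 through WT. An unadjusted p under 0.05 was reached by 14 members and by 37.7% of all features. The count of 5 rested on single arrays: it was 1 without WT floating 1, 0 without WT floating 3, 2 without KO floating 1, 1 without KO adherent 1, and 9 without KO floating 2 or without KO floating 3. It was 8 with the replicate number as a block and 0 with no filter on dim probes. In that block fit KO floating 2 stands alone in its block, so it adds nothing to the blocked differences. KO adherent 1 shares a block with the floating arrays of number 1.

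Over the 38 members without a filter, the median difference was -0.34, with 13 positive, against -0.19 over all genes. Over the 26 members above background on all arrays it was -0.45, with 5 positive. Over all such genes it was -0.09, with 5037 of 11846 positive. By class, among genes above background on all arrays, the medians were -0.41 for 10 type I-induced effectors and -0.60 for 2 viral RNA sensors. They were 0.15 for 2 transcription factors and -0.44 for 3 gamma-type genes. Both the 5 processing and loading genes and the 4 class I chains had -0.50. In KO floating against WT floating with all 8 arrays, the median of the 26 members was -0.27. Over all such genes it was -0.04 there.

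**Figure D3:**
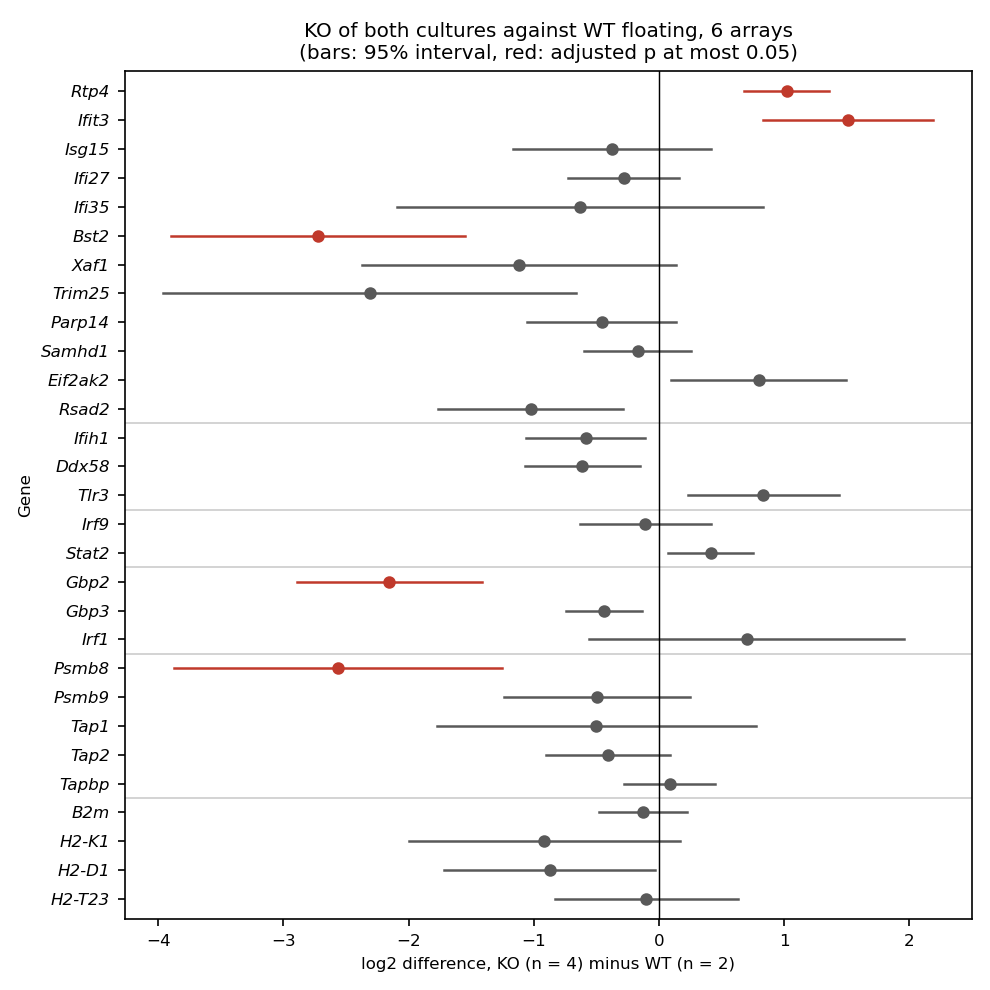
Difference between KO of both cultures (4 arrays) and WT floating (2 arrays) for the 29 tested members in log2 units, with 95% intervals as bars, red where limma's adjusted p was at most 0.05, and grey lines between the classes. Rtp4 and Ifit3 lie right of 0 and Bst2, Gbp2 and Psmb8 left of 0, the widest distance being that of Bst2 at -2.72.

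Among the type I-induced effectors, 2 of 12 tested rose and 1 fell in KO, where 8.99% of all features rose and 8.35% fell. Rtp4, a chaperone that carries receptors to the cell surface and an interferon-induced gene, was at -0.10, -0.09 and -0.06 on the KO floating arrays and -0.36 on KO adherent 1, against -1.17 and -1.18 on WT floating 1 and 3. All 4 KO arrays were above both WT arrays. It rose by 1.02 (SE 0.14, limma adjusted p = 0.0138), a 2.03-fold difference. The array labelled WT floating 2 read 0.09, with the KO arrays, and the array labelled KO adherent 2 read -1.15, with the WT arrays.

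Ifit3, an antiviral protein of the tetratricopeptide family, was at -1.96, -1.59 and -2.30 on the KO floating arrays and -2.24 on KO adherent 1, against -3.19 and -3.89 on WT floating 1 and 3. The KO arrays were all higher, with a difference of 1.51 (SE 0.28, limma adjusted p = 0.0248). WT floating 3 was not above background, so the value of Ifit3 there is not a measured level, no fold is given, and the gene passed the filter through KO alone. The difference was 0.78 with normexp background correction. Its neighbour Ifit3b is a near-identical copy whose signal may not be separable. Its relative Ifit1 was at background on every array.

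Bst2, or tetherin, which holds budding virus at the cell surface, moved the other way. It was at -2.86, -3.53 and -2.03 on the KO floating arrays and -3.06 on KO adherent 1, against 0.45 and -0.75 on WT floating 1 and 3. Bst2 fell in KO, with a difference of -2.72 (SE 0.49, limma adjusted p = 0.0230), 6.61-fold lower. The array labelled WT floating 2 read -2.13 and the array labelled KO adherent 2 read -0.28, each on the other genotype's side.

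The other 9 tested effectors did not pass. Trim25, a ubiquitin ligase that activates the sensor of Ddx58, is named here because of its value: it was at -1.76, -2.45 and 0.19 on the KO floating arrays and -1.58 on KO adherent 1, against 0.77 and 1.05 on WT floating 1 and 3, a difference of -2.31 (SE 0.68, limma adjusted p = 0.0630). The KO arrays spread widely, KO floating 3 standing nearest to WT. The antiviral enzyme Rsad2 (viperin) differed by -1.02 and the kinase Eif2ak2 (PKR) by 0.80, neither overlapping between groups. With the replicate block Eif2ak2 differed by 0.55 (limma adjusted p = 0.0458) and Parp14, which adds ADP-ribose to proteins, by -0.60 (adjusted p = 0.0437), and both passed. Xaf1 at -1.12 did not overlap either. Isg15 (-0.37), Ifi27 (-0.28), Ifi35 (-0.63), Parp14 (-0.46) and Samhd1 (-0.17) overlapped. Ifi35 was above background on 3 of the 4 KO arrays, so its difference holds a value at background.

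The 3 viral RNA sensors gave differences of both signs, and none passed. Ifih1 (MDA5), which senses long double-stranded RNA, was at -2.67, -2.31 and -2.63 on the KO floating arrays and -2.93 on KO adherent 1, against -2.16 and -1.94 on WT floating 1 and 3. Its difference was -0.58 (SE 0.20, limma adjusted p = 0.0853), and with the replicate block it was -0.66 and passed (adjusted p = 0.0439). Ddx58 (RIG-I), the sensor of RNA with a free triphosphate end, differed by -0.61 (limma adjusted p = 0.0698), but its second probe, also above background on all 8 arrays, gave 0.19. Tlr3, an endosomal sensor of double-stranded RNA, was at -2.09, -2.24 and -2.56 on the KO floating arrays and -2.91 on KO adherent 1, against -3.18 and -3.39 on WT floating 1 and 3, of which 1 was above background. The other WT array was not above background, so its value is not a measured level and Tlr3 passed the filter through KO alone. The difference for Tlr3 was 0.83 (limma adjusted p = 0.0645). By the brightest probe of each gene, the KO and WT arrays did not overlap for any of the 3, as for 53.4% of all features.

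Of the factors that carry the type I signal into the nucleus, neither tested one passed. Stat2 was at 0.52, 0.76 and 0.47 on the KO floating arrays and 0.68 on KO adherent 1, against 0.20 and 0.19 on WT floating 1 and 3. The difference was 0.41 (SE 0.14, limma adjusted p = 0.0862), with no overlap. Irf9, the DNA-binding partner, differed by -0.11 with a 95% interval from -0.63 to 0.42, and by 0.13 without WT floating 1.

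Among the gamma-type genes, 1 of 3 tested fell and none rose, where 8.35% of all features fell. Gbp2, an interferon-induced GTPase that attacks intracellular pathogens, was at -1.83, -1.91 and -0.93 on the KO floating arrays and -1.85 on KO adherent 1, against 0.61 and 0.43 on WT floating 1 and 3. Every KO array was below both WT arrays, KO floating 3 being the least low. The difference was -2.15 (SE 0.30, limma adjusted p = 0.0142), 4.45-fold lower in KO. The array labelled WT floating 2 read -1.76 and the array labelled KO adherent 2 read -0.13.

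Gbp3, of the same family, was at 0.39, 0.45 and 0.36 on the KO floating arrays and 0.24 on KO adherent 1, against 0.82 and 0.78 on WT floating 1 and 3. The difference of -0.44 (SE 0.13) missed the threshold (limma adjusted p = 0.0591) although the arrays did not overlap. Irf1, the factor that interferon gamma induces first, was at 3.43, 1.70 and 3.56 on the KO floating arrays and 3.03 on KO adherent 1, against 2.27 and 2.18 on WT floating 1 and 3. KO floating 2 lay below both WT arrays and the other KO arrays above them, so the difference of 0.70 (SE 0.52) had a 95% interval from -0.55 to 1.96. With the replicate block, to which KO floating 2 adds nothing, Irf1 differed by 1.14 and passed (limma adjusted p = 0.0345).

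**Figure D4:**
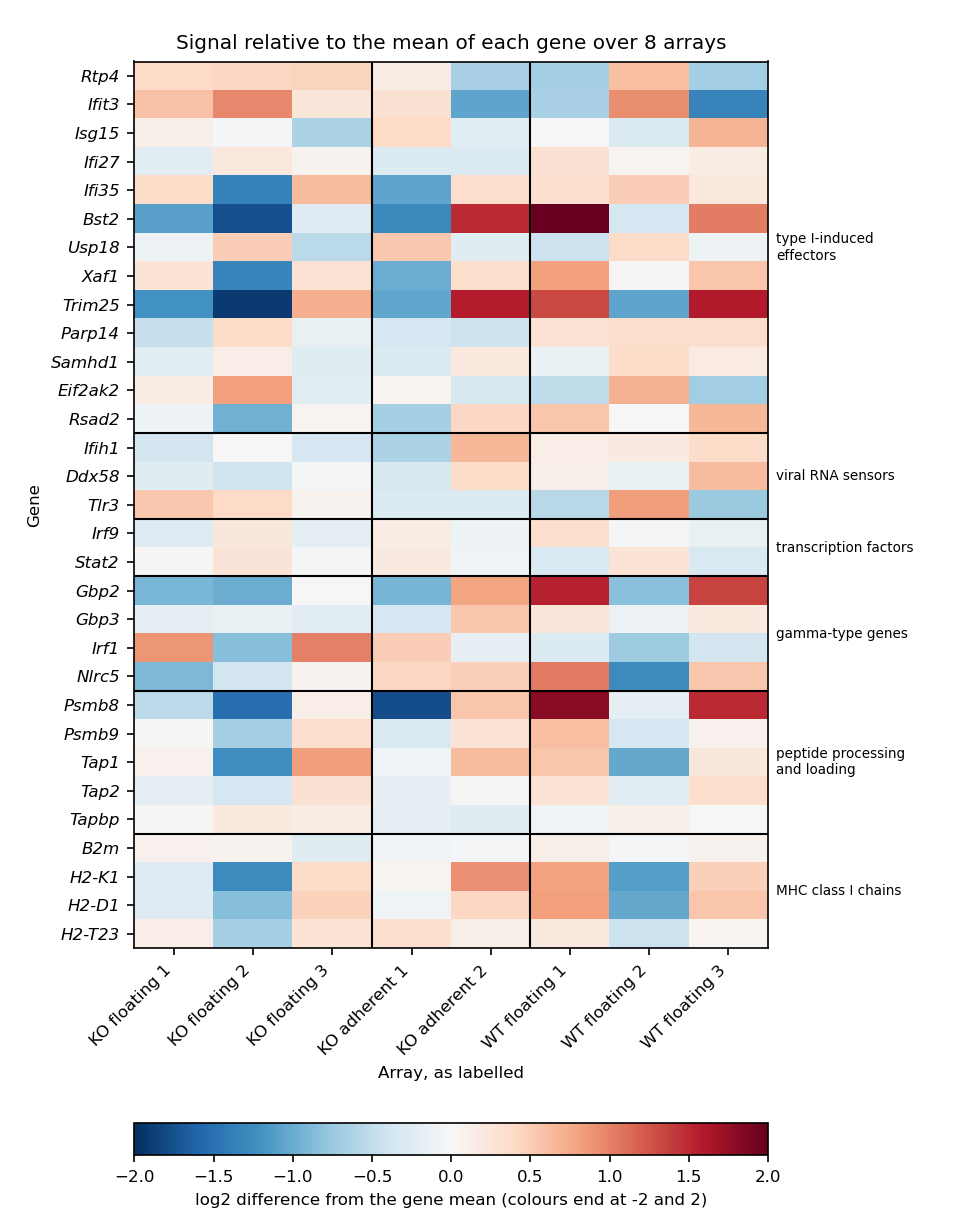
Level of the 31 members tested with all 8 arrays, as log2 signal centred on each gene's mean over the 8 arrays, with genes down the page by class and arrays across by label. For Bst2 and Gbp2 the array labelled KO adherent 2 and the one labelled WT floating 2 lie on the side of the gene mean opposite to their labels.

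In peptide processing and loading, 1 of 5 genes fell and none rose, where 8.35% of all features fell. Psmb8, the immunoproteasome subunit beta 5i, was at -2.17, -3.14 and -1.51 on the KO floating arrays and -3.41 on KO adherent 1, against 0.17 and -0.15 on WT floating 1 and 3. The groups did not overlap, and the difference was -2.57 (SE 0.54, limma adjusted p = 0.0320), 5.92-fold lower in KO. With the replicate block it was -2.27 and did not pass (adjusted p = 0.0579), and likewise with the row of the slide as a block (adjusted p = 0.0503).

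The genes next to Psmb8 gave smaller differences. In the RefSeq annotation Psmb9, Tap1, Psmb8 and Tap2 follow each other in this order on chromosome 17. Psmb9, subunit beta 1i, was at -0.95, -1.65 and -0.64 on the KO floating arrays and -1.28 on KO adherent 1, against -0.38 and -0.89 on WT floating 1 and 3, a difference of -0.50 (SE 0.31, limma adjusted p = 0.276). Tap1, a chain of the peptide transporter, was at -1.73, -3.05 and -0.98 on the KO floating arrays and -1.90 on KO adherent 1, against -1.25 and -1.58 on WT floating 1 and 3, a difference of -0.50 (SE 0.53). Tap2, the other chain, differed by -0.41 and Tapbp, which holds the transporter to the class I chain, by 0.09. The arrays of both groups overlapped for all 4 of these genes, and whether Psmb8 differed more than its neighbours was not tested.

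None of the 4 MHC class I chain genes passed, and all 4 differences were negative without the 2 opposed arrays. With all 8 arrays joined they were -0.10 for H2-K1, -0.18 for H2-D1, -0.09 for B2m and 0.10 for H2-T23. H2-K1 was at 3.49, 2.47 and 4.12 on the KO floating arrays and 3.79 on KO adherent 1, against 4.54 and 4.22 on WT floating 1 and 3. The difference was -0.91 (SE 0.45, limma adjusted p = 0.185), with a 95% interval from -2.0 to 0.17, and -0.75 by a second probe. H2-D1 was at 1.59, 1.0 and 2.32 on the KO floating arrays and 1.76 on KO adherent 1, against 2.68 and 2.41 on WT floating 1 and 3, a difference of -0.87 (SE 0.35, limma adjusted p = 0.124). For both heavy chains the KO arrays lay below the WT arrays without overlap, with KO floating 2 lowest and KO floating 3 close to WT.

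B2m, the light chain, was at 4.59, 4.56 and 4.26 on the KO floating arrays and 4.44 on KO adherent 1, against 4.60 and 4.57 on WT floating 1 and 3. Its difference of -0.12 had a 95% interval from -0.48 to 0.23 and turned to 0.082 with quantile normalization. The non-classical chain H2-T23 differed by -0.10, with an interval from -0.83 to 0.63. Its difference turned to 0.12 with the replicate block. Class I heavy chain genes are near-identical in sequence, so how far each probe separates them is uncertain.

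The arrays with replicate number 2, the only number examined in this way, often lay together. KO floating 2 and the array labelled WT floating 2 were the lowest pair of the 8 arrays in 7 of 31 members (22.6%), which is below the 27% of all features: H2-D1, H2-K1, H2-T23, Irf1, Psmb9, Tap1 and Tap2. They were the highest pair in Eif2ak2, Ifit3, Parp14 and Stat2 (12.9%, against 15.8% of all features).

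The 2 arrays left out were then set beside the joined group means. For all 5 members that passed, the array labelled WT floating 2 lay nearer the KO mean and the array labelled KO adherent 2 nearer the WT mean. Over all features that passed, the array labelled WT floating 2 lay nearer the KO mean in 97.2%, and the array labelled KO adherent 2 nearer the WT mean in 85%. Among the 16 members without overlap it held for 15 in each case (93.8%, against 89.2% and 79.8% of all features without overlap), the exceptions being Ifih1 for the array labelled WT floating 2 and Stat2 for the array labelled KO adherent 2. Over all 29 tested members it held for 24 and 22, against 77.6% and 72.3% of all features.

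Each row of the slide held 2 of the 4 KO arrays and 1 of the 2 WT arrays, and since the KO and WT arrays of the 5 members that passed did not overlap, only the size could differ between rows. The difference was 1.07 in row 1 and 0.97 in row 2 for Rtp4, and 1.42 and 1.61 for Ifit3. For Bst2 it was -3.65 in row 1 and -1.80 in row 2. Gbp2 gave -2.49 and -1.82, and Psmb8 -2.83 and -2.31.

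Other genes of the interferon and antigen presentation pathways, 88 with a probe, were followed in the same comparison. Of 61 tested, 3 rose and 8 fell in KO, which is 18% against 17.3% of all features. Over the 58 above background on all arrays the median difference was -0.25. These calls rested on single arrays too: of the 8 with the smallest adjusted p, all lost the call without WT floating 1 and without WT floating 3, all but Sting1 without KO adherent 1, and Calr, Cmpk2, Il10rb, Pml and Stat3 without KO floating 1. Of 8 tested receptor chains and kinases, 2 fell, where 8.35% of all features fell. Ifnar2, a chain of the type I receptor, was at 1.90, 1.42 and 1.88 on the KO floating arrays and 1.58 on KO adherent 1, against 3.02 and 2.95 on WT floating 1 and 3. The 4 KO arrays were all lower, and the difference was -1.29 (SE 0.18, limma adjusted p = 0.0142). Its partner Ifnar1 differed by 0.12 (adjusted p = 0.654). Il10rb, a chain shared by the receptors for interferon lambda and interleukin 10, fell with a difference of -0.97 (adjusted p = 0.0218). The gamma receptor chains Ifngr1 (-0.55) and Ifngr2 (-0.42) and the kinases Jak1 (-0.18), Jak2 (0.22) and Tyk2 (-0.10) did not pass.

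Of 11 signal carriers and other factors, 2 fell, where 8.35% of all features fell. Sting1, which relays the alarm for DNA in the cytosol, was at 0.13, -0.49 and 0.31 on the KO floating arrays and -1.03 on KO adherent 1, against 2.80 and 2.19 on WT floating 1 and 3. The groups did not overlap, with a difference of -2.77 (SE 0.41, limma adjusted p = 0.0157). Cgas, the enzyme that makes the signal Sting1 receives, differed by -0.84 and did not pass (adjusted p = 0.140). Stat3, which carries interleukin 6 and leukaemia inhibitory factor signals, fell with a difference of -0.95 (adjusted p = 0.0219).

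**Figure D5:**
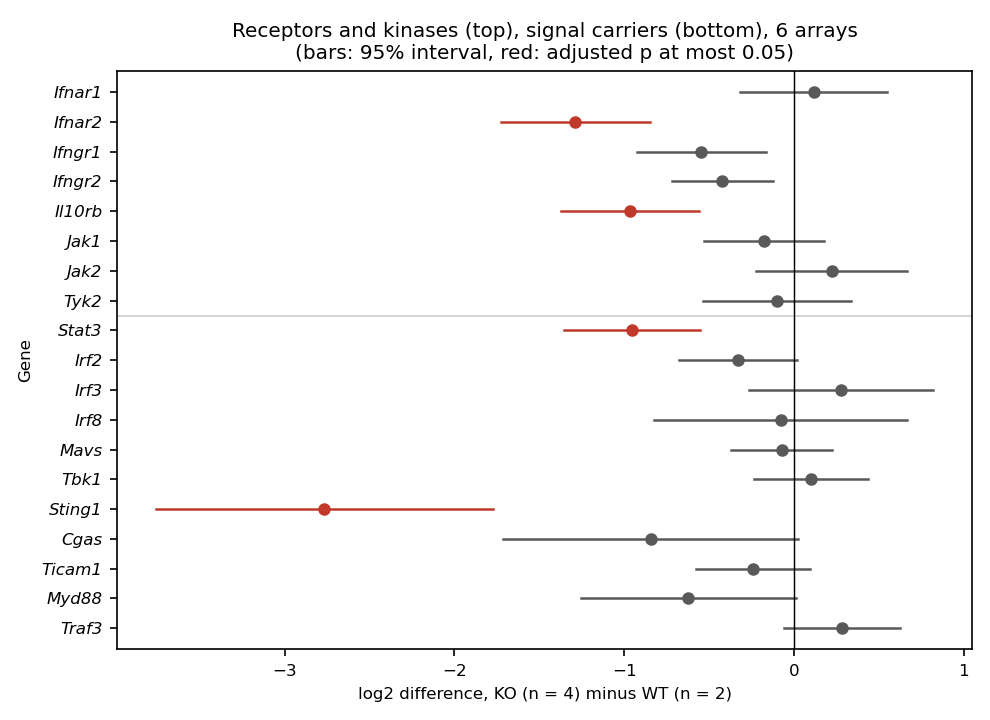
Difference between KO of both cultures (4 arrays) and WT floating (2 arrays) for the tested receptors, kinases, signal carriers and other factors, in log2 units with 95% intervals as bars, red where limma's adjusted p was at most 0.05. Sting1 at -2.77 and Ifnar2 at -1.29 lie left of 0, and Ifnar1 at 0.12 lies near it.

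Of 20 other interferon-induced genes, 3 rose and 2 fell, where 8.99% of all features rose and 8.35% fell. Cmpk2, a mitochondrial nucleotide kinase, rose by 1.43 (SE 0.30, limma adjusted p = 0.0320), with means of -1.56 ± 0.47 in KO (n = 4) and -2.99 ± 0.11 in WT (SD, n = 2). The GTPase Gbp4 (1.07) and the antibody receptor Trim21 (0.56) rose as well. Pml, the scaffold of nuclear bodies, fell with a difference of -0.53 (adjusted p = 0.0363), and Ifitm2, a membrane protein that blocks virus entry, with -0.64. Gbp4, Trim21 and Ifitm2 were named after their values were seen. In the class I pathway, 1 of 10 other genes fell, the chaperone Calr, at -0.88 (adjusted p = 0.0296), which did not pass with the replicate block (-0.86, adjusted p = 0.0522). Of 3 tested class II genes, H2-Ab1, the beta chain of I-A, was at 0.61, -0.47 and 0.58 on the KO floating arrays and -0.14 on KO adherent 1, against 2.80 and 2.34 on WT floating 1 and 3. It fell, with a difference of -2.43 (SE 0.36, limma adjusted p = 0.0153). None of the 8 feedback regulators passed.

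Markers of other cells that could carry these genes were read on the same arrays, as sums of linear signal with the 75th percentile as 1. In such RNA, fewer cells of a type and less RNA per cell cannot be told apart. All 10 neural stem cell markers were above background on every array, and their sum was 598 to 885 on the 4 KO arrays and 470 to 479 on WT floating 1 and 3. Such a sum mostly follows the brightest markers. Taken singly, 6 of the 10 differences were positive. Of the 10, 3 passed as higher and 2 as lower in KO, against 8.99% and 8.35% of all features. Of 13 microglia and macrophage markers, 6 (Aif1, C1qa, C1qc, Cx3cr1, Ptprc and Tyrobp) were above background on 0 arrays, and the sum was 16.5 to 27.7 in KO and at most 15.1 in WT. The higher sum was not shared by most of these markers. Only 5 of the 13 differences were positive, the median was -0.12, and 0 of 4 tested passed. Of 6 lymphocyte markers, Cd3g, Cd79a and Cd8a were above background on 0 arrays and the other 3 on all 8, and the sum was 4.83 to 5.51 in KO and 6.36 to 6.48 in WT. Of 6 mesenchymal and pericyte markers, Lum and Pdgfrb were never above background, and the sum was 0.160 to 0.648 in KO and 0.923 to 1.06 in WT. Of these 6 markers, 0 were above background on all 8 arrays, 0 to 4 on each KO array and 1 to 3 on each WT array. The mesenchymal sums therefore hold signal at background. Of 6 endothelial markers, Cdh5 and Cldn5 were never above background, and the sum was 8.15 to 11.5 in KO and 9.67 to 11.6 in WT. The sums of the stem cell, microglia, lymphocyte and mesenchymal markers did not overlap between these arrays. Of all single features, 53.4% did not overlap either. Among the tested markers, 0 of 3 for lymphocytes and 0 of 1 for mesenchymal cells passed. What part such cells had in the differences above was not tested. Of 6 markers of the ganglionic eminence, the labelled source, Dlx5, Gsx2 and Nkx2-1 were above background on 0 of 8 arrays, Gsx1 on 4, Dlx1 on 6 and Dlx2 on 7. Their sum was 0.311 to 0.364 in KO and 0.300 to 0.355 in WT. Dlx2 was tested and did not pass (difference -0.20, limma adjusted p = 0.625).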

How the data were processed

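The deposited values are linear spot intensity, as the scanner software wrote it (Agilent Feature Extraction 11.0.1.1 per the file headers, 9.1.3.1 per the submitters' processing notes). All values (100%) of the first array in the deposited value table lay within 0.01% of the processed signal.

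From these, log2 values of processed signal minus each array's 75th percentile were computed here. Control spots and spots the software marked as outliers were left out, repeated spots were averaged, and 200 of 55681 probes lacked a value on at least 1 array. Probes were named by RefSeq accession (GRCm38.p6), which matched 27235 of them. A gene was represented by its brightest probe on average, and a feature was tested if all arrays of 1 group or more were well above background. The test was limma's (version 3.58.1, R 4.3.3, lmFit and eBayes, two-sided), with Benjamini-Hochberg adjustment over all features and a threshold of 0.05. Joined groups are described in the results.

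The members and lists were chosen with earlier results of these data known. Named in full were members that passed in any comparison, then those of largest difference up to 3 in a class, and up to 8 passing genes of the other pathway lists. Each sample is 1 embryonic brain. KO adherent was not compared with WT floating by itself. Settings tried were quantile normalization, normexp background correction on the median signal with an offset of 50, the deposited table, other filters, probe averaging, a fit of the compared groups alone, robust eBayes with an intensity trend, replicate and slide-row blocks, and leaving out each array. The script was tested on simulated data.

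Deviations from the group mean correlated between KO and WT floating arrays of the same number (r across genes 0.103, 0.590 and 0.335 for numbers 1, 2 and 3), but KO floating 3 with WT floating 1 gave 0.346, and 1 array of the second pair opposed its label. Blocked values are given where they change a call. In the joined comparison without the 2 opposed arrays, the replicate block leaves KO floating 2 alone in its block. Its value then does not enter the differences. 1 marker each of the lymphocyte and ganglionic eminence lists is not reported here. A joined fit of all 8 arrays was added after the data were seen.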

Additional observations from a re-analysis of the deposited data

Results flagged for a closer look

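Among the 4 KO arrays of the joined comparison, 17 genes were examined for 1 array standing apart, by the gap to its nearest neighbour over the range of the group. Gbp2 on the array labelled KO floating 3 stood above the others, with a gap of 0.916 of the range. Rtp4 on the array labelled KO adherent 1 stood below the others, with a gap of 0.869. Both gaps exceed Dixon's 95% limit for 4 samples, which chance passes in about 1 of 20 groups. Both arrays stayed on the KO side of WT floating 1 and 3.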

How the results depend on the processing

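In both comparisons of all 8 arrays the count of members that passed was 0 under every alternative run. Without the 2 opposed arrays, the count in KO floating against WT floating was 1 (Rtp4) with only probes above background on all arrays and 1 (Rtp4) with an intensity trend and robust eBayes, against 0, and ran from 0 to 1 over the fits that leave out an array. In the joined comparison the count of 5 became 0 with no filter, 0 with all 8 arrays as labelled (chosen after seeing the data), 8 with the replicate block (4 higher and 4 lower), which adds Eif2ak2, Ifih1, Irf1 and Parp14 and loses Psmb8, and ran from 0 to 9 over the fits that leave out an array. Where 1 WT array is left, it is assumed to vary like the others. Quantile normalization and normexp gave 6. With no filter the adjusted p of the 5 ran from 0.0624 (Gbp2) to 0.110 (Psmb8). Over the alternatives that leave out no array, Bst2 ran from -2.76 to -2.01, Gbp2 from -2.17 to -1.80 and Psmb8 from -2.61 to -1.97. Ifit3 ran from 0.78 to 1.52 and Rtp4 from 0.86 to 1.02. These alternatives include the replicate block, to which KO floating 2 adds nothing. Of the named pathway genes, Calr lost its call with the replicate block (adjusted p = 0.0522), which changed no other call among them; leaving out single arrays ended the call in 2 (Sting1) to 4 (Calr, Cmpk2, Il10rb, Pml and Stat3) of 6 fits. B2m turned to 0.082 with quantile normalization. With all 8 arrays Tap1 turned to 0.12 and H2-T23 to 0.10. H2-T23 also turned to 0.12 with the replicate block. Irf9 ran from -0.35 to 0.13 when arrays were left out. The cause of these changes was not tested. The 2 WT arrays, and the 12 members not above background on every array, limit what could be detected.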

Other observations

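Oas1a, a 2'-5' oligoadenylate synthetase, was above background on 1 array, KO floating 2, where its brighter probe read -0.86, while the other 7 arrays read -6.90 to -5.12. Its second probe read -5.90 on KO floating 2 and was above background on 0 arrays. Ifi44 was also above background on KO floating 2 alone, at -3.23. Neither gene passed the filter of any comparison, and both values rest on 1 array.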
